A study of Homo sapiens with 17 samples.

Results

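A group of 6 neighbouring protein-coding genes on chromosome 2, GTF3C2, NRBP1, KRTCAP3, IFT172, CCDC121 and GPN1, was followed through the promoter interactions of naive and primed human pluripotent stem cells (PSCs). Promoter Capture Hi-C (PCHi-C) enriches ligation products that carry a baited promoter fragment, so that each listed interaction joins a bait to a partner, both of them HindIII restriction fragments. The genes were selected on the interaction lists themselves, because their region holds more contacts in naive PSCs than in primed PSCs. The interaction numbers are therefore a description and carry no test, whereas H3K4me1 was not used in the choice. The lists name no genes, so that a fragment was given the genes whose GENCODE 44 protein-coding transcript start, or the 1000 bp upstream of it, it overlaps. By this rule 6 of the 15982 baits held a start of the 6 genes. They contacted each other and 57 further fragments, which gave 63 of the 88413 fragments of the series. All 63 belonged to one connected sub-network of 134 fragments that spans 2.95 Mb, and 182 listed fragments lie in this region in all.

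The 6 genes have unrelated roles. GTF3C2 encodes a subunit of TFIIIC, which recruits RNA polymerase III to transfer RNA genes. GPN1 encodes a GTPase needed for the nuclear import of RNA polymerase II, and CCDC121, a coiled-coil protein gene, starts beside it on the opposite strand. NRBP1 encodes a pseudokinase, KRTCAP3 a small membrane protein and IFT172 a subunit of the intraflagellar transport machinery that builds cilia. Promoters of housekeeping genes in gene-dense DNA often contact one another, and monomethylation of lysine 4 of histone H3 (H3K4me1) marks enhancers and the flanks of active promoters.

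Both cell types were the H9 NK2 line, an established human embryonic stem cell line, so that all libraries share one genetic background and speak for one line. Naive PSCs were kept in N2 and B27 supplemented medium with PD0325901, CHIR99021, human LIF and Go6983, and primed PSCs in TeSR-E8. PCHi-C consisted of 1 list per cell type, in which the authors had combined 2 replicates, with 79330 naive and 88985 primed interactions. Hi-C had 1 library per cell type, with 31310843 naive and 52056334 primed read pairs in the deposited tables. H3K4me1 CUT&RUN had 2 naive and 3 primed libraries. If an empty tile stands for 0.9 reads, these held 21.8 and 6.74 naive and 8.85, 7.89 and 26.6 primed reads in units of 1000000, and 15.3 to 52.3% of tiles were empty. The study's methods call the H3K4me1 replicates biological and the labels do not say whether they were separate cultures, so p-values cover the spread between these libraries. H3K4me1 at the baits of genes that mark each state followed the labels for most. Both naive libraries were above all primed libraries at 5 of 5 baited naive markers (such as DPPA5 and KLF17) and below them at 4 of 6 baited primed markers, with overlap at OTX2 and SFRP2. ZIC2 and ZIC5 among the latter share 1 bait. How often fragments of the series separate in this way was not counted, so these counts are only a description. Of the 3 baited markers shared by both states, SALL4 was higher in both naive libraries (difference 1.10). POU5F1 (0.72) and SOX2 (0.41) overlapped but also leaned to naive.

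A few stretches of sequence place the results (hg38). The first 2 are the parts outside annotated exons of the RefSeq promoters of KRTCAP3 (chr2:27442260-27442365, plus strand) and IFT172 (chr2:27489806-27489993, minus strand), which lie in the 2 baits where H3K4me1 passed the filter described below. Capitals mark matches to GGGCGG, the GC box, and CCAAT on either strand. The third is the whole of the shortest partner, 200 bp inside an intron of PPM1G (chr2:27406060-27406259, plus strand), with the bases left by the HindIII cuts in capitals. The fourth is the middle of the 500 bp tile with the most naive H3K4me1 in the NRBP1 bait (chr2:27421101-27421400, plus strand), which held none of the 6 motifs searched and is all in lower case.
KRTCAP3 promoter: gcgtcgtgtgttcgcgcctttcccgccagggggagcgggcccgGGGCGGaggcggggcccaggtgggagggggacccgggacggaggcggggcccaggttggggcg
IFT172 promoter: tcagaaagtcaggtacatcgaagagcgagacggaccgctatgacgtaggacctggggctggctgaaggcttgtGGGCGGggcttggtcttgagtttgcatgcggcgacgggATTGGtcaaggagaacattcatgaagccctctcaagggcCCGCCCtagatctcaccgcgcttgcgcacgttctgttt
PPM1G intron fragment: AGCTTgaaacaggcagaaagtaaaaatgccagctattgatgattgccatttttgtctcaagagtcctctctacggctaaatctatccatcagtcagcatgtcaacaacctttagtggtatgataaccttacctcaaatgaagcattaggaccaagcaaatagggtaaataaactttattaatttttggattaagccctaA
NRBP1 bait tile: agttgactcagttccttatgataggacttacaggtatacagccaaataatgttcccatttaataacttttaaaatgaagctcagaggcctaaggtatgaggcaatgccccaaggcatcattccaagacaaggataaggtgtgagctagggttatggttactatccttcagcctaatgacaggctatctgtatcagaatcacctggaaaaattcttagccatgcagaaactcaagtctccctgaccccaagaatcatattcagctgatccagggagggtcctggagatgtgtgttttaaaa
The KRTCAP3 stretch is 81.1% G and C with 13 CpG dinucleotides in 106 bases, and the IFT172 stretch 58% with 14 in 188 bases. The tile in the NRBP1 bait is 42% G and C with no CpG. GGGCGG was found in the 300-base RefSeq promoters of NRBP1, KRTCAP3 and IFT172 and in 44.6% of 27305 promoters, and CCAAT in those of NRBP1 and IFT172 and in 35.7%. AAGATGG was found in those of GTF3C2, CCDC121 and GPN1 (6.06% of promoters), the last 2 of which overlap, and CCGGAAG in that of GTF3C2 (10.7%). GCGCATGCG (2.1%) and TATAAA (12%) matched none of the 6. Both strands were searched for each, and a match is a string of letters, not a bound site.

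The 6 baits carried 81 distinct naive interactions and 32 primed ones. Of these, 20 were in both lists, which is 24.7% of those in naive PSCs and 62.5% of those in primed PSCs (95% Wilson intervals 16.6 to 35.1% and 45.2 to 77.1%, counting error only). Over the whole series both lists held 49.6% of the naive interactions and 44.2% of all primed ones, and the naive list was the shorter. The difference came from 4 baits. The baits of KRTCAP3 (24 naive, 4 primed), CCDC121 and GPN1 (22 and 4), NRBP1 (12 and 2) and IFT172 (9 and 1) had more interactions in naive PSCs. Both GTF3C2 baits had more in primed PSCs, with 15 naive and 21 primed interactions at the bait of its main start and 4 and 6 at a second bait, which also holds a start of MPV17. At least 2 times as many naive interactions were listed at 4 of the 6 baits, against 22.6% of the 7685 baits of the series with 5 or more interactions in either list, and at least 2 times as many primed interactions at 0 of the 6, against 28.2%. Only 82 of the 15982 baits had a naive excess as large as that of the KRTCAP3 bait or larger, and 121 one as large as that of the CCDC121 and GPN1 bait.

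**Figure D1:**
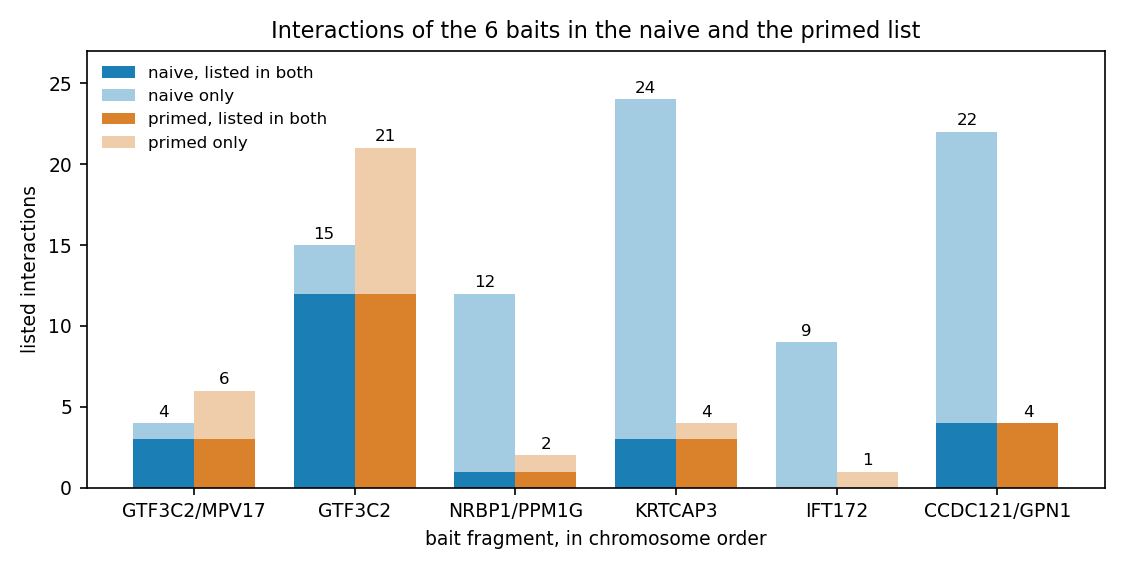
Listed interactions of the 6 baits in naive (blue) and primed (orange) PSCs, with the part listed in both cell types in the darker shade. The KRTCAP3, CCDC121/GPN1, NRBP1/PPM1G and IFT172 baits have 9 to 24 naive and 1 to 4 primed interactions, and both GTF3C2 baits have more primed than naive ones.

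The KRTCAP3 bait (chr2:27439525-27449683) holds the whole KRTCAP3 gene and the 3′ ends of NRBP1 and IFT172, as well as minor starts of both. All 24 of its naive partners lay at higher coordinates. Of these, 3 were 7.19 to 10.1 kb away inside IFT172, with 219 to 260 reads each. One was 88.3 kb away, and the other 20 ran as a near-continuous row from 135 to 223 kb, over the end of C2orf16, ZNF512, CCDC121, GPN1 and SUPT7L. The gene body of ZNF512, which encodes a zinc finger protein, overlapped 10 of the 24 naive partners and none of the primed ones. The strongest naive interaction reached the CCDC121 and GPN1 bait at 183 kb, with 59 reads and a score of 17.36. CHiCAGO scores rise with the evidence for more reads than the distance predicts, and the lists start at a score of 5. This interaction was not listed in primed PSCs. Of its partners, 3 neighbouring fragments inside GPN1 were listed in both cell types, with 19, 29 and 12 reads in naive and 29, 33 and 24 reads in primed PSCs. Their scores were 8.94, 9.23 and 5.22 in naive and 5.63, 5.35 and 5.66 in primed PSCs, so that for the first 2 the primed list had more reads at a lower score.

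The IFT172 bait (chr2:27486042-27493723) holds the start of IFT172. Its 9 naive partners were 3 fragments inside its own gene body (8.86 to 26.98 kb away, 102 to 277 reads), the bait at the start of C2orf16 at 46.2 kb, and 5 fragments around CCDC121 and GPN1 at 132 to 152 kb. The scores ranged from 5.49 to 8.7. The single primed partner was the GTF3C2 bait at 132 kb in the other direction, with 10 reads and a score of 8.68, and this contact was not listed in naive PSCs. No partner was therefore shared.

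The NRBP1 bait (chr2:27406260-27428194) also holds the start of PPM1G, a phosphatase gene, and the 2 genes cannot be told apart in its contacts. The RefSeq start of NRBP1 lies just past its end, in an unbaited fragment. Of its 12 naive partners 11 lay at higher coordinates, 163 to 244 kb away, from the end of C2orf16 to SUPT7L, and the other lay 17.4 kb away in PPM1G. Its naive scores were 5.17 to 12.23. The 2 primed interactions were with the CCDC121 and GPN1 bait (33 reads, score 5.63, against 40 reads and 12.23 in naive PSCs) and with the GTF3C2 bait (18 reads, score 9.82), which was not listed in naive PSCs.

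The CCDC121 and GPN1 bait (chr2:27624909-27629666) was the other end of this pattern. Of its 22 naive partners 21 lay at lower coordinates, 91.2 to 270 kb away. Of these, 7 overlapped the gene body of IFT172, 6 that of PPM1G and 4 that of NRBP1, against 0, 2 and 1 in primed PSCs. The naive interactions had 16 to 257 reads and scores of 5.25 to 21.66. All 4 primed interactions were also in the naive list. They were with the GTF3C2 bait (16 reads in each list, scores 21.66 naive and 23.64 primed), the NRBP1 bait, the PPM1G intron fragment printed above (52 reads and 13.36 naive, 35 reads and 5.84 primed) and the bait at the start of GCKR (38 reads in each list, 6.42 and 5.49). The read numbers of these 4 differed less between the lists than the scores of the 2 in the middle.

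The bait of the main GTF3C2 start (chr2:27354376-27360875) had another pattern, but on few reads. Its interactions had a median of 12 naive and 10 primed reads (lowest 4), against 15.5 to 60 and 10 to 34 at the 4 baits above. From the CCDC121 and GPN1 bait, 16 naive reads to it at 270 kb scored 21.66, while 49 to the EIF2B4 bait at 257 kb scored 7.8. Whether this bait was captured as well as the others was not tested, so the contrast with them may not compare like with like. It shared 12 of its 15 naive and 21 primed partners, and every partner in either list was itself a bait. The 9 primed-only partners included the NRBP1, KRTCAP3 and IFT172 baits and the promoters of AGBL5, CGREF1, PREB and CAD, each with 7 to 18 reads. Its 5 contacts with the stretch from the C2orf16 bait to the SUPT7L bait were the same in both lists. The second GTF3C2 bait (chr2:27324905-27343263) shared its 3 nearest partners, among them the main GTF3C2 bait (62 reads and 17.7 naive, 59 reads and 22.21 primed). It reached 3 fragments of SLC5A6 and CAD in primed PSCs only.

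**Figure D2:**
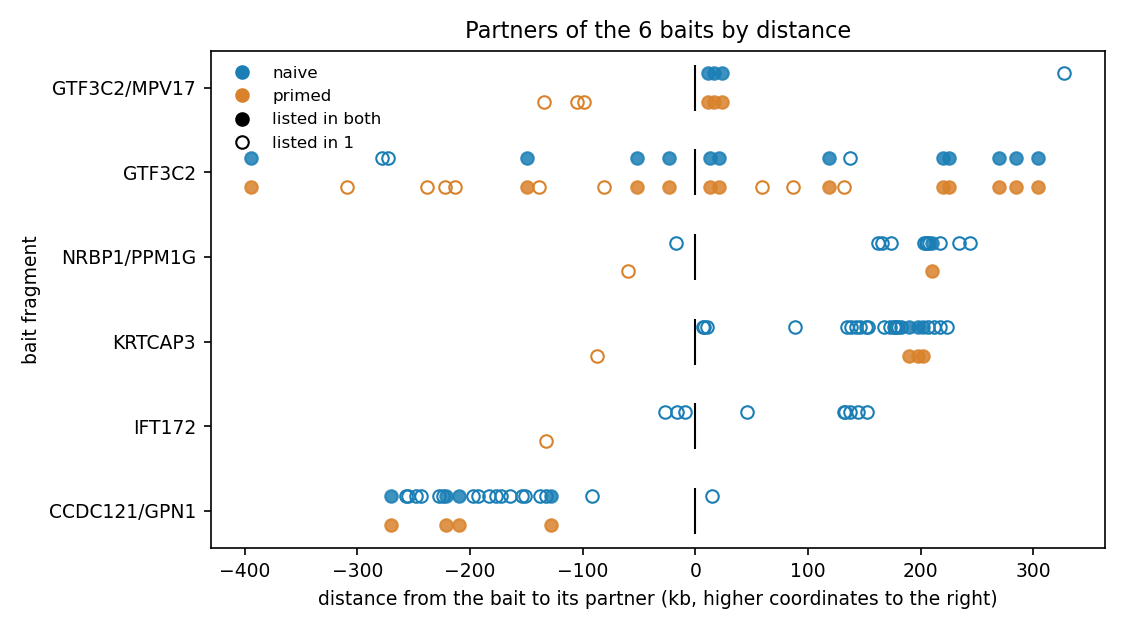
Distance in kb from each of the 6 baits (black bar at 0) to its partners, naive above in blue and primed below in orange, filled where both lists hold the interaction. Naive partners of NRBP1/PPM1G, KRTCAP3 and IFT172 gather on the right and those of CCDC121/GPN1 on the left, while those of the main GTF3C2 bait lie on both sides in both lists.

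The naive-only contacts thus mostly joined 2 stretches of DNA. Between the 15 listed fragments from the NRBP1 and PPM1G bait to the last GCKR bait and the 21 fragments from the C2orf16 bait to the SUPT7L bait, 62 naive interactions were listed but only 6 primed ones, with 5 in both. Of these, the NRBP1, KRTCAP3 and IFT172 baits accounted for 36 naive and 4 primed interactions. Neighbouring fragments share ligation products of the same folded stretch, so these interactions are not independent of each other. The size of the difference depended on how an interaction was counted. At a score of 10 or more, 12 naive and 11 primed interactions of the 6 baits were left. Of the 81 naive interactions 54 (66.7%) had a primed counterpart with both ends within 10 kb, against 74.2% of all naive interactions of the series. Among the 15 pairs of the 6 baits, 5 were in the naive list and 6 in the primed list, with 3 in both. KRTCAP3 to CCDC121 and GPN1, and IFT172 to the same bait, were listed in naive PSCs only, and GTF3C2 to each of NRBP1, KRTCAP3 and IFT172 in primed PSCs only.

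The bait most like that of KRTCAP3 by shared partners was the bait of ZNF513, a zinc finger gene, with 16 of 26 partners in common (Jaccard index 0.615 over both lists). It was also the most like the NRBP1 bait (11 of 19, 0.579). A bait inside IFT172 at the U6 pseudogene RNU6-986P came next for NRBP1 (0.471) and first for IFT172 (0.294), and the SLC4A1AP and SUPT7L bait was most like that of CCDC121 and GPN1 (10 of 23, 0.435). The GTF3C2 bait was most like that of TRIM54 (8 of 29, 0.276) and the second GTF3C2 bait like that of ATRAID, CAD and SLC5A6 (3 of 12, 0.25). In naive PSCs the fragments contacted by most of the 6 baits were the CCDC121 and GPN1 bait, a bait inside GPN1 and the SLC4A1AP and SUPT7L bait, with 4 each. In primed PSCs it was the GTF3C2 bait, with 5.

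Of the other 34 baits of the sub-network, 22 had more interactions in naive PSCs, 7 more in primed PSCs and 5 the same number. A list of genes of the region by role, chosen with these results known, had the same direction in most groups. More naive than primed interactions were listed for 5 of 7 baited genes of RNA and protein synthesis, 4 of 5 of cilia and microtubules, 5 of 8 of metabolism and transport, 4 of 7 of vesicle traffic and signalling, 10 of 10 tissue-restricted genes and 2 of 3 transcription factors, and more primed ones for 1, 1, 2, 2, 0 and 1. Genes that share a bait share its count. The largest naive excesses were those of NRBP1 (36 naive and 6 primed over its 2 baits), IFT172 (33 and 5 over its 2 baits, 1 of which is also an NRBP1 bait), KRTCAP3, GPN1 and TRIM54, a muscle ubiquitin ligase gene (25 and 12). The largest primed excesses were those of FOSL2, an AP-1 transcription factor (9 and 21, outside the sub-network), GTF3C2 (18 and 26), SLC5A6 and ATRAID (11 and 19 on the same 2 baits), and CAD, an enzyme of pyrimidine synthesis (2 and 7).

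H3K4me1 was higher in naive PSCs across most of these fragments. It was given as the mean log2 RPM (reads scaled to the library size, per 1000000) over the 500 bp tiles of a fragment and tested with limma over all fragments with Benjamini-Hochberg adjustment. At the KRTCAP3 bait the naive libraries had 0.35 and 0.62 log2 RPM and the primed libraries -2.37, -1.59 and -2.06. The groups did not overlap, and the difference was 2.49 on the log2 scale (SE 0.36, adjusted p = 0.00072 in limma). At the IFT172 bait the naive values were 0.05 and 0.05 and the primed values -2.05, -1.78 and -2.46. This difference was 2.15 (SE 0.34, adjusted p = 0.0011 in limma), again with no overlap.

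The other 4 baits did not pass the filter of that fit, which keeps fragments above 0 log2 RPM in at least 2 libraries, and have values only from a fit over all 88413 fragments. The KRTCAP3 and IFT172 baits passed it through the 2 naive libraries alone, so that a high naive value was a condition of their test. In the fit over all fragments their adjusted p was 7.3e-05 and 0.00025 in limma. The NRBP1 bait had -0.82 and -0.49 in naive and -2.60, -2.29 and -2.71 in primed libraries. All naive values were above all primed ones, with a difference of 1.88 (SE 0.36, adjusted p = 0.00074 in limma). The CCDC121 and GPN1 bait had -0.50 and -0.58 in naive and -1.10, -1.88 and -1.72 in primed libraries. There was no overlap here either, but the difference of 1.03 (SE 0.37) did not pass (adjusted p = 0.053 in limma). The main GTF3C2 bait had -1.61 and -1.17 in naive and -1.58, -1.81 and -2.51 in primed libraries. These groups overlapped, with a difference of 0.58 (SE 0.38, adjusted p = 0.35 in limma). The second GTF3C2 bait had -2.04 and -1.99 in naive and -3.13, -2.79 and -3.20 in primed libraries, a difference of 1.03 (SE 0.39) that did not pass (adjusted p = 0.067 in limma), although the groups did not overlap. With 2 and 3 libraries, groups that do not overlap are no test in themselves, and their share over all fragments was not counted. The 3 baits that passed are among the 4 with the naive excess of contacts.

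**Figure D3:**
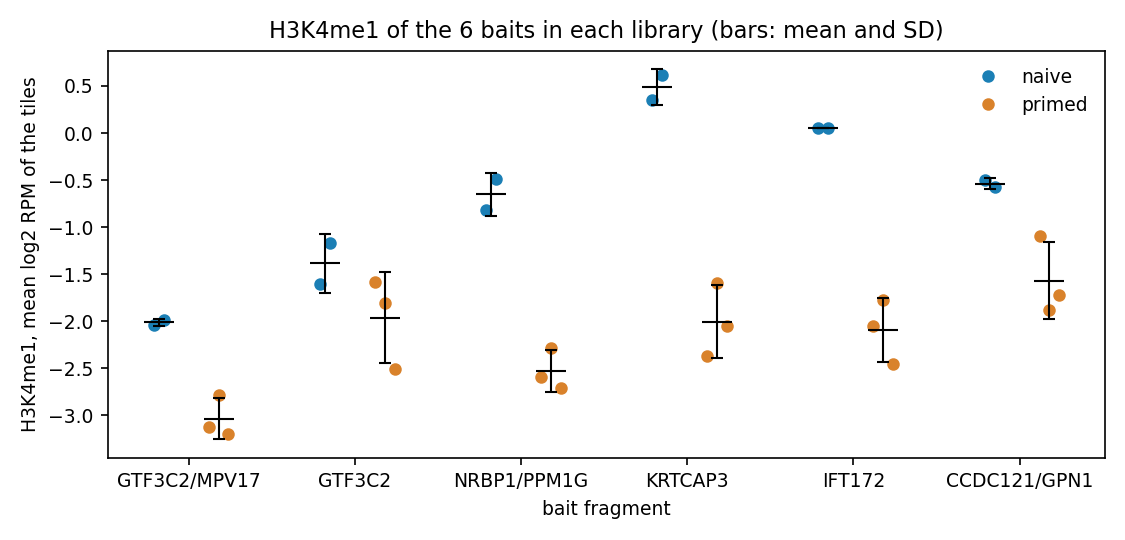
H3K4me1 of the 6 baits as mean log2 RPM over the tiles of the fragment, 1 point per library, 2 naive (blue) and 3 primed (orange), with the mean and SD. Naive and primed points are furthest apart at KRTCAP3, IFT172 and NRBP1/PPM1G and closest at the main GTF3C2 bait.

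Within the baits, 29 of 137 tiles were above 0 in at least 2 libraries, and 22 of them were higher in naive and 0 in primed PSCs, with 26.1% and 25.9% of the 465156 tiles of the series called in limma. Of the 29, 27 were above 0 in both naive libraries and 5 in at least 2 primed ones, so that a high naive value was for most a condition of the test and the count is only a description. At an unadjusted p under 0.05, 23 were higher in naive and 1 in primed PSCs. The tiles called were 8 in the KRTCAP3 bait, 8 in the IFT172 bait, 4 in the NRBP1 bait and 2 in the CCDC121 and GPN1 bait, and no tile of the GTF3C2 baits passed the filter. With tiles above 0 in at least 1 library, 3 of 3 tiles of the second GTF3C2 bait and 1 of 2 of the main one were higher in naive PSCs. Of the 758304 tiles of the series that this looser filter kept, 205232 were higher in naive and 189583 in primed PSCs. A single high naive value was enough to enter it, so this count too is only a description. The 2 calls in the CCDC121 and GPN1 bait were lost without either naive library or without primed replicate 3, and the 8 in the IFT172 bait fell to 4 without either naive library. In the IFT172 bait the tile over the start (chr2:27489501-27490000) was the highest in both cell types, with 1.78 and 2.05 naive and 0.66, 0.61 and -0.21 primed (difference 1.57, SE 0.41, adjusted p = 0.0051 in limma, and 0.064 without naive replicate 2). In the KRTCAP3 bait the tile at the KRTCAP3 start was highest in primed libraries and did not differ past the threshold (0.67, SE 0.50, adjusted p = 0.27 in limma). In the NRBP1 bait the highest naive tile was the one whose middle is printed above, in the DNA between PPM1G and NRBP1, and not the tile at the PPM1G start. It had 0.76 and 1.25 naive and -3.15, -2.98 and -2.41 primed (difference 3.85, SE 0.58, adjusted p = 0.00016 in limma), and the tile at the PPM1G start had -0.05 and -0.17 naive and 0.31, 0.72 and -0.41 primed (difference -0.32, SE 0.51, adjusted p = 0.63 in limma). In the CCDC121 and GPN1 bait the tile highest in primed libraries lay at the shared start. It had -1.28 and -1.75 naive and 0.02, 0.02 and -0.41 primed (difference -1.39, SE 0.59, adjusted p = 0.059 in limma). The tile highest in naive libraries lay within CCDC121 and was higher in naive PSCs (2.37, SE 0.72, adjusted p = 0.012 in limma, but 0.052 without primed replicate 3). Its difference was 2.24 without naive replicate 1 and 2.51 without naive replicate 2. All tiles named here were picked as the highest of their bait in naive or in primed libraries. That choice favours a difference in the same direction, so their p-values are only a description.

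Over the 63 bait and partner fragments, H3K4me1 was higher in naive PSCs at 33 and in primed PSCs at 1 in the fit over all fragments, against 13.2% and 8.19% of the 88413 fragments tested. The median difference was 1.23 on the log2 scale, against 0.06 over all fragments. By contact, 23 of 32 partners listed in naive PSCs only were higher in naive PSCs, 7 of 16 listed in both and 0 of 9 listed in primed PSCs only (2 of these 9 at an unadjusted p under 0.05 in limma). Their median differences were 1.47, 1.02 and 0.36. The primed-only partners were all contacted by a GTF3C2 bait and lay from chr2:27040642 to chr2:27278129. The naive-only partners, other than those at EMILIN1, lay from chr2:27371517 to chr2:27669340. Contact and position therefore cannot be told apart in these numbers. Among the 71 fragments of the sub-network that contacted none of the 6 baits, 8 were higher in naive and 6 in primed PSCs, with a median of 0.08. Most of these lay at lower coordinates than most naive-only partners. The 48 listed fragments of the region outside the sub-network had no contact with the 6 baits either. Of these, 10 were higher in naive and 0 in primed PSCs, with a median of 0.40. Mean levels over the naive-only partners were -0.81 and -0.60 log2 RPM in naive and -2.49, -2.19 and -2.38 in primed libraries. Over the primed-only partners they were -2.08 and -1.83 in naive and -2.50, -1.98 and -2.52 in primed libraries, where the groups overlapped. Adjacent fragments lie in the same marked stretch and are not independent of each other.

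**Figure D4:**
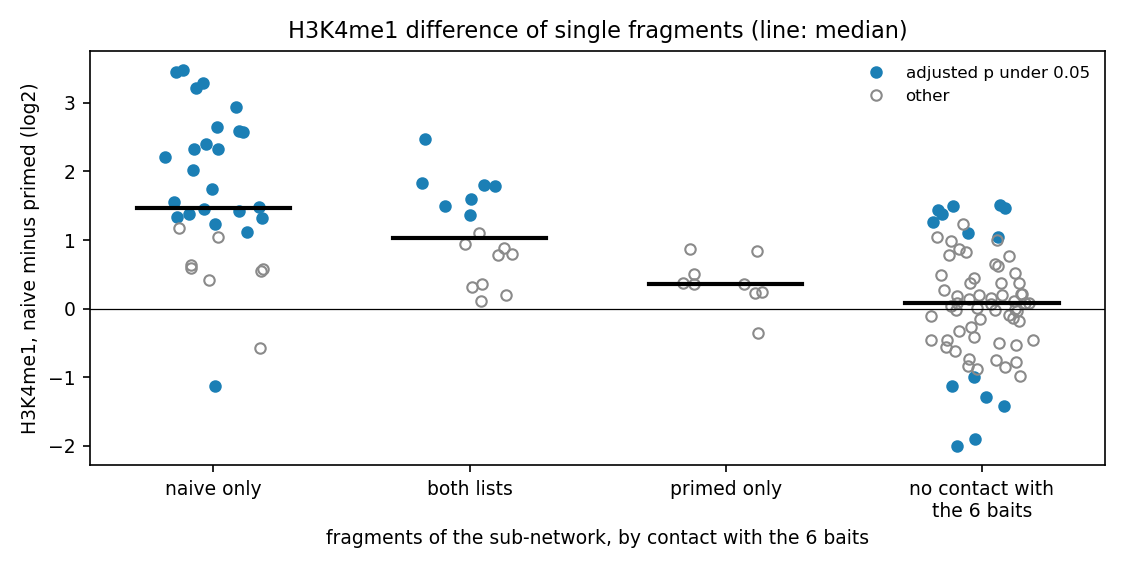
Difference in H3K4me1, naive minus primed in log2 units, for single fragments of the sub-network, grouped by the list in which the 6 baits contact them, with the median as a line. Filled points passed the threshold in the fit over all fragments, and the medians are 1.47 for naive-only, 1.02 for shared and 0.36 for primed-only partners and 0.08 for fragments with no such contact. The groups also differ in their position along the chromosome.

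In the filtered fit 11 of the 63 fragments were tested, and 10 were higher in naive PSCs and 0 in primed PSCs (also 0 at an unadjusted p under 0.05 in limma), against 31.2% and 21.6% of the 8198 fragments tested. All 11 passed the filter through the 2 naive libraries, so that a high naive value was a condition of the test and the count is only a description. Besides the 2 baits, the largest differences were at a fragment wholly within a C2orf16 exon (chr2:27579289-27580189; 0.01 and 0.95 naive, -3.30, -2.98 and -2.73 primed; 3.48, SE 0.38, adjusted p = 0.00030 in limma), contacted by the NRBP1 and KRTCAP3 baits in naive PSCs. The value of this exon fragment comes from 1 tile. The next was a fragment without exons before C2orf16 (chr2:27532136-27533684), contacted by the KRTCAP3 bait, with 0.17 and 0.97 naive and -2.91, -3.08 and -2.63 primed (3.45, SE 0.36, adjusted p = 0.00029 in limma). A pair of adjoining fragments at the 3′ end of ZNF512 had differences of 2.93 (SE 0.53, adjusted p = 0.0020 in limma) and 2.32 (SE 0.35, adjusted p = 0.00084 in limma), and their neighbour, contacted by 3 of the 6 baits, one of 0.64 that did not pass (SE 0.32, adjusted p = 0.13 in limma). The first of the pair also rests on 1 tile.

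Inside IFT172 a fragment with no exon base, contacted by the KRTCAP3 bait, had 0.36 and 0.25 naive and -2.15, -2.98 and -1.73 primed (2.59, SE 0.42, adjusted p = 0.0012 in limma), from 1 tile. The PPM1G intron fragment had 0.41 and 0.57 naive and -0.82, -1.98 and -3.15 primed (2.47, SE 0.60, adjusted p = 0.0085 in limma), from a single tile that reaches into the fragments on either side. A fragment inside GTF3C2 contacted by the second GTF3C2 bait in both lists was higher as well (1.84, SE 0.34, adjusted p = 0.0022 in limma), as was one inside SNX17 (1.34, SE 0.39, adjusted p = 0.020 in limma). For SNX17 the call was lost without naive replicate 1 (difference 1.00), without primed replicate 3 (adjusted p = 0.052 in limma) and with median centring (adjusted p = 0.060 in limma). The 1 fragment higher in primed PSCs, in the fit over all fragments, was the EMILIN1 bait contacted by the GTF3C2 bait in naive PSCs, with -2.24 and -1.36 naive and -1.03, -0.09 and -0.88 primed (-1.13, SE 0.40, adjusted p = 0.049 in limma). At some partners the first primed library stood at its empty-tile value of -3.30, and at some the second at its own of -3.13. The size of those differences therefore depends on the depth of these libraries. Empty-tile values ran from -2.91 in naive replicate 2 to -4.89 in primed replicate 3.

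Hi-C, which enriches no promoters, was compared in pairs of 100 kb bins after division by the mean of all pairs at the same distance, with 1 library per cell type and no test. The pair of bins that held most contacts of the 6 baits (38 naive and 6 primed; chr2:27400001-27500000 with chr2:27600001-27700000) had 197 naive and 255 primed read pairs. These were 1.18 and 1.29 times the mean at that distance, a log2 ratio of -0.13. The pair with 11 naive and 0 primed contacts had 497 and 509 read pairs (log2 ratio 0.19), and the pair with 9 and 3 had 111 and 92 (0.54). All 3 of these lay within the 5th to 95th percentile of bin pairs at their distance. Over the 10 bin pairs the median log2 ratio was -0.08, with 4 higher in naive PSCs. After division by the contacts of each bin with other chromosomes the median was 0.41 and that of the first pair 0.46, so the direction turned with the scaling. The deposited naive table leaves out weak pairs, so its contacts between chromosomes may be counted incompletely and this scaling may not treat both cell types alike. The 2 bins next to each other around GTF3C2 (6 primed and 1 naive contacts) had 118 naive and 196 primed read pairs, a log2 ratio of -0.50, at the 1.6th percentile. The pair of chr2:26900001-27000000, which holds a MAPRE3 bait, and chr2:27300001-27400000, with 1 contact in each list, had 36 and 22 read pairs, a log2 ratio of 1.02 at the 96.1st percentile.

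**Figure D5:**
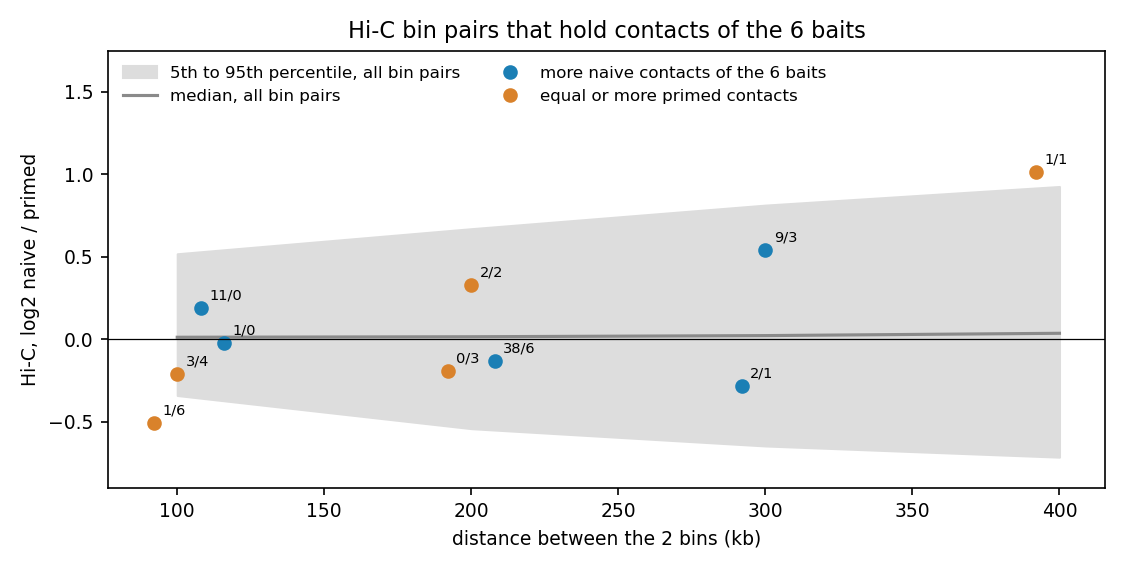
Hi-C log2 ratio of naive to primed read pairs, each relative to its mean at the same distance, for the 10 pairs of 100 kb bins that hold contacts of the 6 baits, against the distance between the bins in kb, with naive/primed numbers of those contacts beside each point. The grey band is the 5th to 95th percentile of all bin pairs, and the pair with 38 naive and 6 primed contacts lies inside it at -0.13.

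The 57 partners other than the 6 baits were more often baits themselves (36.8%) than the other fragments of the region (16%) or the rest of chromosome 2 (15.3%), and 96.5% overlapped a protein-coding gene, against 75.6% and 62.4%. The baits in this share came mostly from the main GTF3C2 bait, all of whose partners were baits (15 naive and 21 primed). At the KRTCAP3 bait 4 of 24 naive partners were baits, and at the CCDC121 and GPN1 bait 11 of 22. At the NRBP1 bait they were 3 of 12, at the IFT172 bait 3 of 9 and at the second GTF3C2 bait 2 of 4. The median length of the 57 partners was 3264 bp and their median G and C content 43.8%, against 3235 bp and 46.8% in the rest of the region. A further 3 sub-networks with more contacts in naive PSCs stood beside this one. The naive to primed ratio was 2.02 here (242 and 120 interactions), 2.16 around PRPF39 on chromosome 14, 1.35 around SMU1 on chromosome 9 and 1.26 around SMARCC2 on chromosome 12. H3K4me1 was higher in naive PSCs at 30.6% of the fragments here and at 37.4%, 27.4% and 25.1% of the fragments there, and higher in primed PSCs at 5.22%, 0.90%, 5.12% and 1.03%. The differences between these sub-networks were not tested.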

How the data were processed

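PCHi-C, Hi-C and H3K4me1 CUT&RUN of naive and primed H9 NK2 PSCs were used, all mapped to GRCh38 per the labels. The deposited PCHi-C lists give, for each interaction, a read number and a CHiCAGO score, made by the authors with HiCUP and CHiCAGO from 2 replicates combined, at scores of 5 or more. An interaction listed from both baits was counted once, at its higher score. The deposited Hi-C tables hold raw read pair counts per pair of 100 kb bins, and the naive one leaves out weak pairs. The deposited H3K4me1 values are log2 RPM per 500 bp tile, made by the authors with Trim Galore 0.5.0, Bowtie2 2.3.2 and SeqMonk.

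Fragments on chromosome 2 were checked against hg38, and 7690 of 7690 had HindIII sites at both ends. A fragment was given the mean of the tiles whose middle it holds. Naive and primed libraries were compared with limma 3.58.1 in R 4.3.3 (lmFit, eBayes with trend), over fragments or tiles above 0 in at least 2 libraries, with an adjusted p under 0.05 as threshold. The fit was first tried on simulated data. Their spread was fixed and smaller than that between libraries at many fragments, so the trial checked the code and not the error rate on these data. Named were the 6 genes and their baits, the 3 baits most like each, the 5 partners contacted by most of the baits, the fragments of smallest p and genes of a list by role. The members and lists were chosen with earlier results of these data known. Alternatives were other scores and read minima, scalings, filters, a replicate block and leaving out each library. NANOG and SOX2 ChIP-seq was not used here. PCHi-C intervals cover counting error only.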

Additional observations from a re-analysis of the deposited data

How the results depend on the processing

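The naive to primed ratio of the interactions of the 6 baits was 2.53. It was 2.05 at a score of 7 or more, 3.22 at 10 reads or more and 2.61 with equally many top-scoring interactions per list, but 1.09 at a score of 10 or more. Chosen after seeing the data, it was 6.4 over the other 4 baits (64 and 10 interactions), 10.5 when their contacts with the GTF3C2 baits were left out too (63 and 6), and 2.89 with canonical starts only. For the whole sub-network it was 2.02, and 1.59 at a score of 10 or more. The share of naive interactions also listed in primed PSCs rose from 24.7% to 66.7% when ends within 10 kb counted as the same. Among the baits and partners, 10 fragments were higher in naive PSCs in the filtered fit and 33 without the filter, and 0 and 1 in primed PSCs. Quantile normalisation left 10 and median centring 9, and over all fragments quantile normalisation lowered the median difference from 0.25 to 0.09. Leaving out each library gave 9 to 10 fragments and 15 to 23 tiles, against 22 tiles of the baits, and 46 tiles with tiles above 0 in at least 1 library. Over all fragments the naive-higher count was 2557, 11656 without the filter and 1616 to 2937 on leaving out a library; over all tiles it was 121251, and 205232 with the looser filter. With the replicate number as a replicate block, 10 fragments and 19 tiles were higher in naive PSCs and 0 in primed PSCs. Deviations of same-numbered libraries from their cell type means correlated weakly, at 0.067 and 0.039. The deviations of the 2 naive libraries mirror each other, so these values cannot tell whether the numbers pair the libraries. Of 121 repeats over the 11 fragments tested, 118 kept their direction and side of the threshold and 3, all of the SNX17 fragment, lost the call. The median Hi-C log2 ratio was -0.08, -0.12 for adjacent bins and 0.41 after correction for coverage between chromosomes. The 2 PCHi-C replicates were pooled in the deposited lists and Hi-C had 1 library, so no replicate error could be given for contact numbers, and the cause of these changes was not tested.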
